A study of Mus musculus with 16 samples.

Results

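The genes described here are the ligands, receptor chains and transcription factor of interleukin 4 (IL-4) and interleukin 13 (IL-13) signalling in the whole mouse uterus. The 7 members are Il4, Il13, Il13ra2, Il13ra1, Il4ra, Il2rg and Stat6, out of 16528 genes with a symbol that were measured. Their probes were found by RefSeq accession. Il13ra2 was selected on measured values, its log2 differences between dexamethasone and vehicle in these same arrays, and the others were taken because they belong to the same receptor system. The dexamethasone values of Il13ra2 are therefore a description, with no test.

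The 4 groups had 4 arrays each. GenD mice received genistein as pups and dexamethasone as adults. GenV mice received genistein as pups and saline vehicle as adults. SalD mice were control pups that received dexamethasone as adults, and SalV mice were control pups that received vehicle. Genistein, an estrogen-like isoflavone of soy, was given at 50 mg/kg on postnatal days 1 to 5. Control pups had 20 µl of corn oil per the series design text, whereas the sample labels name the same treatment saline. All mice lost both adrenals and ovaries at 6 weeks, so every group lacked the main sources of corticosterone and ovarian estrogen. At 8 weeks the synthetic glucocorticoid dexamethasone (1 mg/kg) or 100 µl of saline was injected intraperitoneally, and the uterus was taken 4 h later. The study asked whether genistein early in life changes glucocorticoid signalling in the adult uterus. Strain is not given in the sources used here, and no animals are named, so each p-value reflects only how far arrays of a group spread.

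IL-4 and IL-13 are the signature cytokines of type 2 immunity, made mainly by T helper 2 cells, innate lymphoid cells, mast cells, basophils and eosinophils. IL-4 binds the IL-4 receptor alpha chain, which pairs with the common gamma chain on blood cells or with the IL-13 receptor alpha 1 chain on stromal, epithelial and myeloid cells. IL-13 signals only through the second pairing. Both receptors signal through Janus kinases to STAT6, which turns on genes of alternative macrophage activation, mucus and antibody class switching. IL-13 receptor alpha 2 binds IL-13 with very high affinity, lacks the signalling tail of the other chains and acts mainly as a decoy.

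The proximal promoters of 3 members are printed because the levels of these genes differed clearly between groups. Each covers the 250 bases before the transcription start in the RefSeq table of build GRCm38.p6, written 5′ to 3′ on the gene's strand. Il13ra2 lies on the minus strand at chrX:147429193-147429442, Il4ra on the plus strand at chr7:125552021-125552270, and Il2rg on the minus strand at chrX:101268256-101268505. Capitals mark the matched motifs described after the sequences.
Il13ra2: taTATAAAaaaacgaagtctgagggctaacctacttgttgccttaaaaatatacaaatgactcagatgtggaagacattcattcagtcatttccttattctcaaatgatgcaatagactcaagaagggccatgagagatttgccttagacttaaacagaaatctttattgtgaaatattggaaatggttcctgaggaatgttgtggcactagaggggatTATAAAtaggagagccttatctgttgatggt
Il4ra: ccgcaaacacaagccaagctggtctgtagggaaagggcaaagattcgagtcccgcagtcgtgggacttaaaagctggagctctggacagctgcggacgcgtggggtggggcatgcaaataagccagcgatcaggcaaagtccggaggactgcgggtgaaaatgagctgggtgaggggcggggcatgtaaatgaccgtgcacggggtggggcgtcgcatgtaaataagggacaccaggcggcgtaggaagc
Il2rg: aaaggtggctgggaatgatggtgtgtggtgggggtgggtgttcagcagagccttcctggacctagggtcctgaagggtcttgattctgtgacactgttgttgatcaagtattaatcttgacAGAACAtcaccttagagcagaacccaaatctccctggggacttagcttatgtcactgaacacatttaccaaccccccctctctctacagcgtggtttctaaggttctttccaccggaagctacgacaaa

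Both strands were searched for the full glucocorticoid response element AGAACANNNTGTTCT, its single arm AGAACA, and the STAT spacings TTCNNNNGAA and TTCNNNGAA. The TATA box letters TATAAA were searched on the gene's strand alone. None of the response element and STAT letters occurred in the 250 bases before Il13ra2, which held TATAAA from 31 to 26 and from 248 to 243 bases upstream of the start. Il4ra held none of the searched letters. Il2rg held 1 match to the single arm, from 129 to 124 bases upstream. Among members not printed, Il4 held the 4-base STAT spacing from 167 to 158 bases upstream, in the window at chr11:53618666-53618915. Il13 held TATAAA from 29 to 24 bases upstream. Over 32851 promoters of the same length, 0.00913% held the full element, 16.1% the single arm, 5.85% the 4-base STAT spacing, 7.02% the 3-base STAT spacing and 7.59% TATAAA. A match describes letters in this window and is not evidence of binding.

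Levels below are log2 of the background-subtracted signal relative to the 75th percentile of spots on the same array, so 0 means a spot as bright as that percentile. They compare arrays for 1 probe and do not rank genes against each other. The 75th percentile itself ran from 948 to 2719 signal units per array, with the 4 SalD arrays between 1987 and 2719 and the other 12 between 948 and 2029. Well above background were 68.9 to 81.3% of spots. Arrays of 1 group correlated across genes at 0.963 to 0.988, and arrays of different groups at 0.933 to 0.986. On the first principal component over all genes the SalD arrays lay at 65 to 102 and all others at or below 18, with SalV array 1 at -68.3 away from the rest of its group. On the second, GenV arrays 3 and 4 lay at 73.1 and 49.7 and GenV arrays 1 and 2 at -42.5 and -52.2. Results were also computed without each single array, without SalD arrays 2 and 3 and without GenV arrays 3 and 4. Without SalV array 1 the SalD minus SalV differences were -1.70 for Il4ra, -0.94 for Il2rg and -0.63 for Il4, all called. All 13 measured epithelial, all 12 stromal and all 8 smooth muscle markers were above background on all 16 arrays. So were all 15 macrophage and dendritic cell markers and all 11 endothelial markers, so detection alone does not test the tissue label. A change is called where limma's adjusted p is below 0.05 over all 24651 genes and unnamed targets. For dexamethasone against vehicle in control pups 36.7% of calls were higher, but 47.3% after quantile normalization and 64.8% after median scaling, with a median change of all genes of -0.16, -0.0379 and 0.0683 in the 3 scalings. For genistein against control under dexamethasone 72.1% were higher, but 56.2% and 56.3% under the same 2 settings. For each called member the change relative to the median of all genes is given where that median was beyond 0.1.

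The decoy receptor Il13ra2 had a level near the 75th percentile of its array in every dexamethasone-treated uterus and a level far below it in every vehicle-treated one. Its 4 GenD arrays read 0.86, 0.43, 0.63 and 0.04, against -5.05, -4.78, -5.66 and -6.94 in GenV. Its 4 SalD arrays read 0.89, -0.05, -0.41 and 0.00, against -6.73, -5.15, -5.21 and -4.63 in SalV. The lowest dexamethasone array thus lay more than 4 log2 units above the highest vehicle array, with either neonatal treatment. The probe was well above background on all 16 arrays and saturated on none, so the vehicle values are measured levels and not bounds. These levels were dim, with signals of 15.4 to 63 units in GenV and 16.9 to 82 units in SalV. In RNA of the whole uterus, a change in the number of cells that express a gene and a change in RNA per cell cannot be told apart, for Il13ra2 or any other member.

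On the linear scale the geometric mean of Il13ra2 was 140% of the array's 75th percentile in GenD and 2.05% in GenV. It was 108% in SalD and 2.32% in SalV. The log2 difference was 6.10 (SE 0.49) for GenD minus GenV, or 68.4-fold. It was 5.54 (SE 0.49) for SalD minus SalV, or 46.5-fold. By size of the difference, the value that chose it, Il13ra2 ranked 1 among 24651 genes in the first comparison and 3 in the second. With normexp background correction, which lifts dim signals, the same differences were 4.55 and 3.44, so their size depends on how background is handled. Within the 3 array slides that held both groups, GenD minus GenV ran from 4.82 to 7.37 and SalD minus SalV from 4.22 to 6.71.

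The vehicle groups had the larger SDs. The SD of Il13ra2 was 0.35 in GenD and 0.96 in GenV, and 0.55 in SalD and 0.91 in SalV, each over 4 arrays. Ordered by mean, the groups were GenD at 0.49, SalD at 0.11, SalV at -5.43 and GenV at -5.61. Neighbours at each end of that order overlapped. GenD minus SalD was 0.38 (SE 0.49, 95% interval -0.66 to 1.42, limma adjusted p = 0.586), and GenV minus SalV was -0.18 (SE 0.49, interval -1.22 to 0.86, adjusted p = 0.863).

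No difference in the dexamethasone response of Il13ra2 between genistein and control pups was called. The interaction, GenD minus GenV less SalD minus SalV, was 0.56 (SE 0.69, adjusted p = 0.709), with a 95% interval from -0.91 to 2.03. It was -0.13 without GenV arrays 3 and 4, of which array 4 had the lowest vehicle level of the gene. It was 0.11 to 0.99 when any 1 array was left out. Over 28 other settings it reached at most 1.11, with no adjusted p below 0.19. These 4 arrays per group therefore left room for a response up to about 4.08-fold larger, or down to 0.531 times as large, after genistein.

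**Figure D1:**
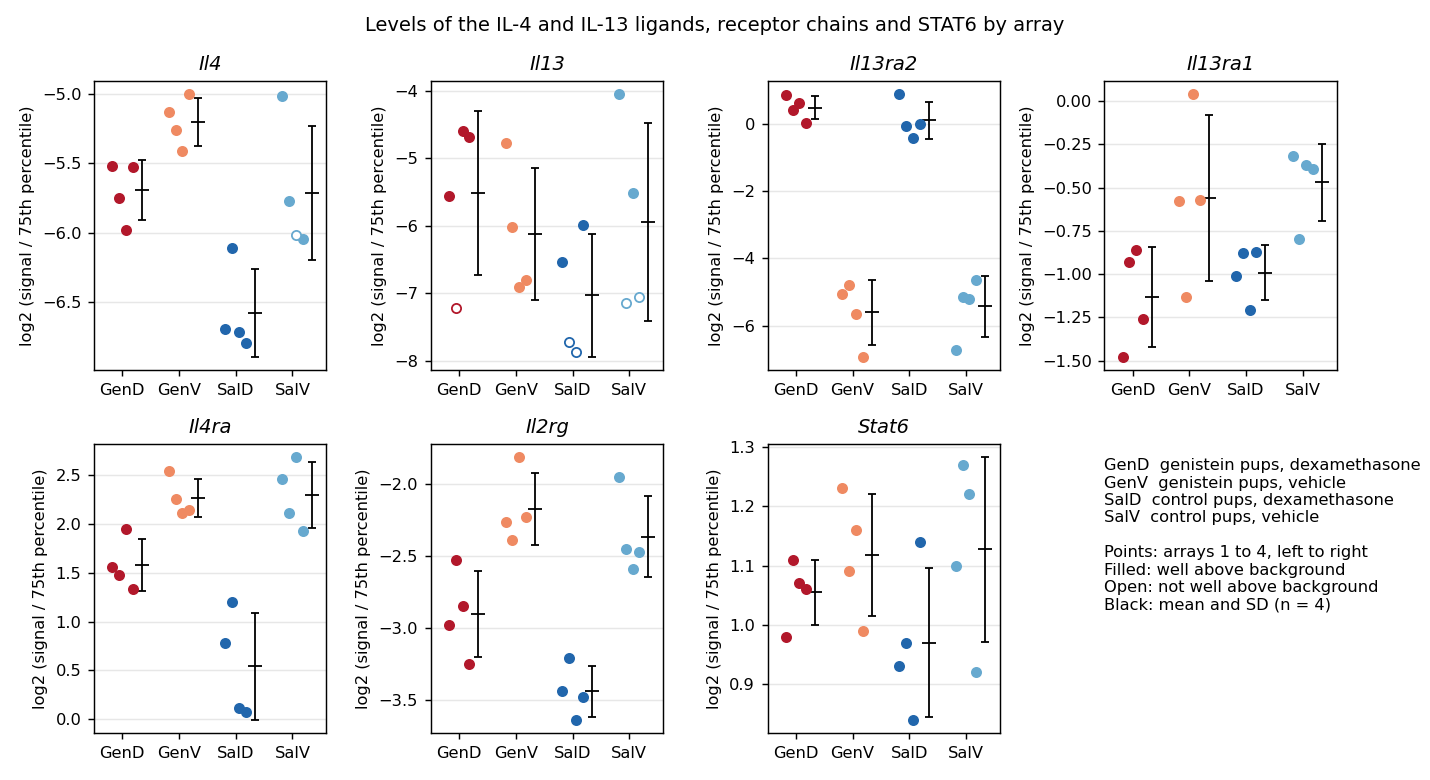
Level of each of the 7 genes on each of the 16 arrays, as log2 of signal over the array's 75th percentile (vertical axis, a separate scale for each gene), by group. Filled points were well above background and open points were not, and black marks give the mean and SD of 4 arrays. Il13ra2 is the gene whose dexamethasone and vehicle arrays lie farthest apart, Il4ra and Il2rg lie lower in SalD than in SalV, and Il13 has open points in 3 groups.

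Fkbp5 and Tsc22d3, glucocorticoid-induced genes that report receptor activity, give a yardstick for the exposure. Fkbp5 rose by 4.56 (SE 0.38) in GenD minus GenV and by 4.44 (SE 0.38) in SalD minus SalV. Tsc22d3 rose by 2.40 and 2.42 (SE 0.22 each) in the same comparisons. Their interactions were 0.12 for Fkbp5 and -0.02 for Tsc22d3, and neither was called.

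Genes with the most similar pattern were sought by Pearson correlation with Il13ra2 over the 16 arrays, as a description. The 5 highest were Hsd11b2 at 0.98, Ctla2b at 0.977, Lao1 at 0.976, and Rhob and Map3k6 at 0.974 each. Hsd11b2 encodes the enzyme that inactivates corticosterone, Lao1 an amino acid oxidase, Rhob a small GTPase and Map3k6 a stress kinase. Hsd11b2 averaged 0.18 ± 0.28 in GenD and -3.93 ± 0.47 in GenV, and -0.63 ± 0.59 in SalD and -4.17 ± 0.31 in SalV (SD, n = 4 each). With each gene's group means removed, which leaves the spread within groups, the correlations with Il13ra2 fell to 0.676 for Hsd11b2, 0.63 for Rhob, 0.527 for Ctla2b, 0.497 for Lao1 and 0.369 for Map3k6. All 16 arrays share the 2 dexamethasone and 2 vehicle groups, so the first set of correlations contains that difference.

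**Figure D2:**
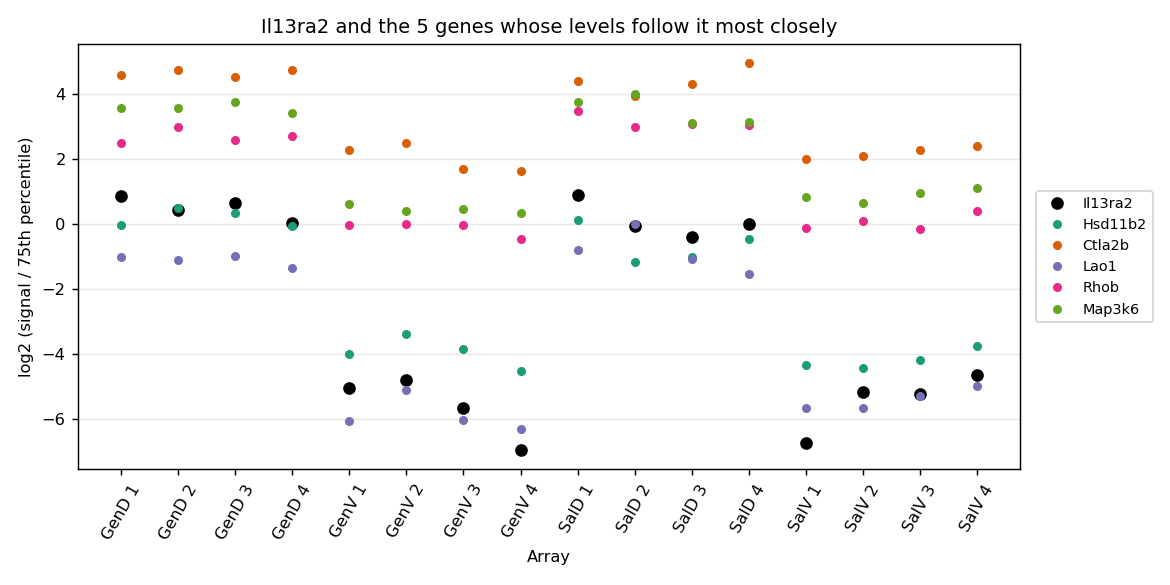
Level of Il13ra2 and of the 5 genes most correlated with it, as log2 of signal over the array's 75th percentile (vertical axis), on each of the 16 arrays (horizontal axis). All 6 genes have their GenD and SalD points above their GenV and SalV points, with Il13ra2, Hsd11b2 and Lao1 covering the widest range.

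The IL-4 receptor alpha chain Il4ra, which is part of both signalling receptors, was lower after dexamethasone in control pups. Its 4 SalD arrays read 0.78, 1.20, 0.11 and 0.07, against 2.46, 2.11, 2.69 and 1.93 in SalV. Every SalD array lay below every SalV array. The difference was -1.75 (SE 0.25, limma adjusted p = 0.000604), a 3.37-fold lower level, or -1.59 relative to the median of all genes. It passed the threshold under all 29 other settings, and within the 3 slides holding both groups it ran from -1.82 to -1.32.

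In genistein pups the same comparison of Il4ra was smaller and was not called. The GenD arrays read 1.56, 1.48, 1.95 and 1.33, against 2.54, 2.26, 2.11 and 2.15 in GenV. The groups did not overlap, yet the difference of -0.68 (SE 0.25) had an adjusted p of 0.148. It stayed at or below -0.59 under all 29 other settings and was called in 1 of them, with array weights (adjusted p = 0.0416). Within 3 slides it ran from -0.93 to -0.66.

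After dexamethasone, Il4ra was 2.05-fold higher in GenD than in SalD (1.04, or 0.92 relative to all genes, SE 0.25, adjusted p = 0.0127), with no overlap, and the call held under all 29 other settings. The vehicle groups had nearly equal means, 2.26 ± 0.19 in GenV and 2.29 ± 0.34 in SalV (SD, n = 4 each), with a difference of -0.03 (95% interval -0.57 to 0.50, adjusted p = 0.955). The interaction of 1.07 (SE 0.35, 95% interval 0.31 to 1.83) was not called after adjustment over all genes (adjusted p = 0.216, and 0.0869 to 0.466 over 28 other settings). A different response of Il4ra to dexamethasone in genistein pups therefore did not pass the test, although its interval lay above 0. No interaction was called for any of the 24651 genes by limma, against 3830 at an unadjusted p below 0.05.

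The common gamma chain Il2rg, shared by the receptors for IL-2, IL-4, IL-7, IL-9, IL-15 and IL-21, was also lower after dexamethasone. Its SalD arrays read -3.44, -3.21, -3.64 and -3.48, against -1.95, -2.45, -2.59 and -2.47 in SalV. All SalD arrays lay below all SalV arrays. The difference was -1.08 (SE 0.19, adjusted p = 0.00193), 2.11-fold lower, or -0.92 relative to all genes. The call held under all 29 other settings.

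Il2rg in genistein pups read -2.98, -2.53, -2.85 and -3.25 in GenD, against -2.26, -2.39, -1.81 and -2.23 in GenV. These groups did not overlap either. The difference was -0.73 (SE 0.19, adjusted p = 0.0377), a 1.66-fold lower level. That call was lost in 17 of 29 other settings, among them normexp correction (-0.16, adjusted p = 0.68) and leaving out any 1 of SalV 2, SalV 4, SalD 1, GenV 1, GenV 3, GenV 4, GenD 1, GenD 3 or GenD 4, where the adjusted p reached at most 0.103. GenD minus SalD was 0.54 (adjusted p = 0.0509) and was called in 10 of 29 other settings, among them slide as a fixed block (0.73, adjusted p = 0.0132), slide as a random block (adjusted p = 0.0425), array weights (adjusted p = 0.0036), normexp correction (0.99, adjusted p = 0.0309) and leaving out any 1 of SalV 1, SalD 2, GenV 3 or GenD 4. The interaction was 0.35 (adjusted p = 0.528).

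Il13ra1, which pairs with the IL-4 receptor alpha chain to form the IL-13 receptor, had lower means after dexamethasone, and neither difference was called. Its brighter probe averaged -1.13 ± 0.29 in GenD and -0.56 ± 0.48 in GenV, and -0.99 ± 0.16 in SalD and -0.47 ± 0.22 in SalV (SD, n = 4 each). The SalD arrays, from -1.21 to -0.87, lay just below the SalV arrays, from -0.80 to -0.32. SalD minus SalV was -0.53 (SE 0.22, adjusted p = 0.097) and GenD minus GenV was -0.57 (SE 0.22, adjusted p = 0.172). The first passed the threshold in 2 of 29 other settings, a fit of the compared arrays alone (adjusted p = 0.0489) and without GenV arrays 3 and 4 (adjusted p = 0.0484), and the second in none, with the lowest adjusted p at 0.0529. The second probe gave -0.40 (adjusted p = 0.255) and -0.36 (adjusted p = 0.503).

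The ligand Il4 was dim throughout, near 1 to 3% of the array's 75th percentile, and was measured by 10 repeated spots. Its SalD arrays read -6.70, -6.11, -6.72 and -6.80, against -5.01, -5.77, -6.02 and -6.05 in SalV. The highest SalD array lay just under the lowest SalV arrays. The difference was -0.87 (SE 0.23, adjusted p = 0.0154), 1.83-fold lower, or -0.71 relative to all genes. The call was lost in 4 of 28 other settings: quantile normalization (-0.42, adjusted p = 0.185), median scaling (-0.64, adjusted p = 0.0526), normexp correction (adjusted p = 0.0851) and a fit of the compared arrays alone (adjusted p = 0.054).

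Il4 averaged -5.70 ± 0.22 in GenD and -5.20 ± 0.18 in GenV (SD, n = 4 each), a difference of -0.50 that was not called (adjusted p = 0.264). It was 1.85-fold higher in GenD than in SalD (0.88, or 0.77 relative to all genes, SE 0.23, adjusted p = 0.016), a call that was lost with quantile normalization (0.44, adjusted p = 0.147) and with normexp correction (adjusted p = 0.0629). The repeated spots bound these values: their SD within an array had a median of 0.43 log2 units and ranged from 0.23 to 0.75. Of 160 Il4 spots, 144 were well above background. SalV array 3 was the 1 array on which the probe as a whole was not.

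The ligand Il13 was at the edge of detection. It was well above background on 3 of 4 GenD arrays, 4 of 4 GenV arrays, 2 of 4 SalD arrays and 2 of 4 SalV arrays. Its levels ran from -7.21 to -4.59 in GenD, from -6.90 to -4.78 in GenV, from -7.87 to -5.99 in SalD and from -7.14 to -4.05 in SalV, so all groups overlapped. GenD minus GenV was 0.61 (SE 0.76, adjusted p = 0.768) and SalD minus SalV was -1.09 (SE 0.76, 95% interval -2.72 to 0.54, adjusted p = 0.318). GenD minus SalD was 1.52 (SE 0.76, adjusted p = 0.155) and was called in 2 of 28 other settings, array weights (2.23, adjusted p = 0.011) and normexp correction (1.66, adjusted p = 0.0487).

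Stat6, the transcription factor of both receptors, showed no called difference at its brightest probe. That probe averaged 1.05 ± 0.06 in GenD and 1.12 ± 0.10 in GenV, and 0.97 ± 0.13 in SalD and 1.13 ± 0.15 in SalV (SD, n = 4 each). SalD minus SalV was -0.16 (95% interval -0.40 to 0.08, adjusted p = 0.329), the same as the median of all genes, and 0.07 with median scaling. GenD minus GenV was -0.07 (interval -0.31 to 0.18, adjusted p = 0.852).

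The other Stat6 probes did not all give the same answer. The probe with 10 repeated spots gave -0.24 for SalD minus SalV (adjusted p = 0.19). The remaining probe, which was dim, averaged -6.08 ± 0.33 in SalD and -5.14 ± 0.41 in SalV (SD, n = 4 each), a called difference of -0.93 (SE 0.25, adjusted p = 0.016). It was also 0.78 higher in GenD than in SalD (adjusted p = 0.0364). The mean of the 3 probes gave -0.44 for SalD minus SalV (adjusted p = 0.0376), so the call for Stat6 depended on which probe was read.

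**Figure D3:**
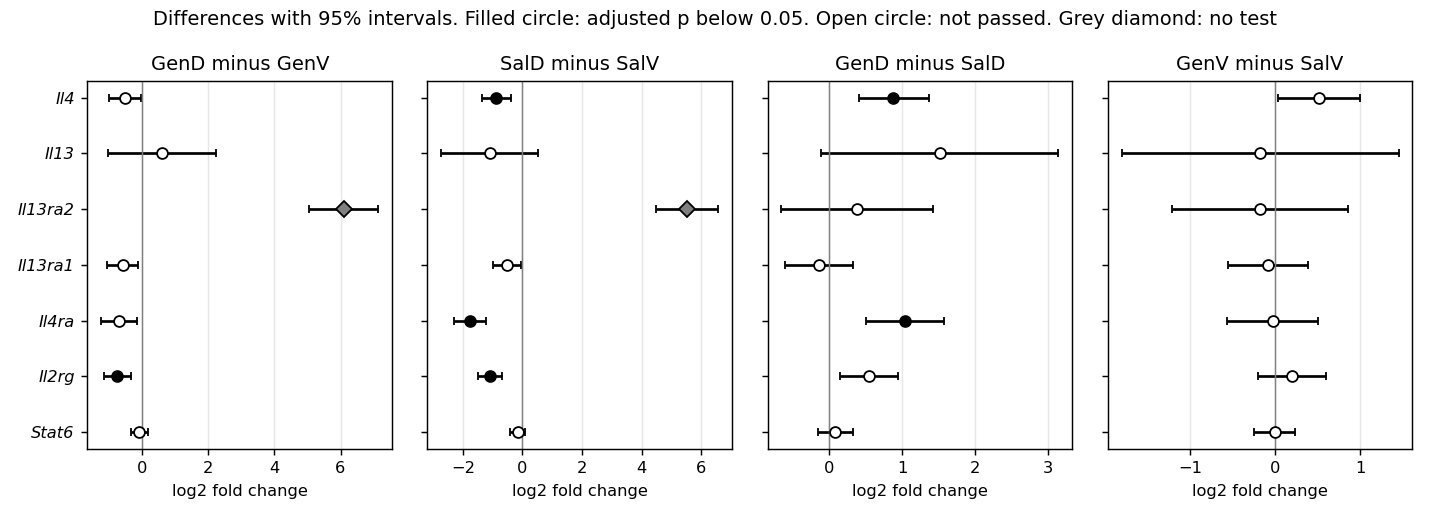
Log2 fold changes of the 7 genes with 95% intervals (horizontal axis) in 4 comparisons, genes in rows. Filled circles passed an adjusted p below 0.05, open circles did not, and grey diamonds mark the contrasts that chose Il13ra2 and were not tested. The intervals at the diamonds take no account of that choice and are no test. Il4ra, Il2rg and Il4 lie left of 0 in SalD minus SalV, Il4ra and Il4 lie right of 0 in GenD minus SalD, and no gene is called in GenV minus SalV.

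Il13ra2 was not tested in the comparisons of dexamethasone with vehicle, which leaves 6 members there. In SalD minus SalV 3 of the 6 were called, Il4, Il4ra and Il2rg, all lower, against 23.0% of all genes called and 14.6% called lower. Their median was -0.97, against -0.16 over all genes. In GenD minus GenV, 1 of the same 6 was called, Il2rg, which was lower, against 5.29% of all genes called and 2.80% called lower. In that comparison 3 of the 6 had all GenD arrays below all GenV arrays, against 6.20% of all genes. Their median was -0.53, against -0.01. In GenD minus SalD, 2 of 7 were called, both higher, against 22.9% of all genes called and 16.5% called higher, a share near the background. In GenV minus SalV none of the 7 was called, against 0.00406% of all genes, with 1 member, Il4, at an unadjusted p below 0.05. All 7 members passed the filter on low signal, Il4 with 15 and Il13 with 11 of 16 arrays above background and the others with all 16.

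Markers of lymphoid cells, in which Il2rg and Il4 are expressed, were mostly lower in SalD minus SalV but mostly not called in GenD minus GenV. Marker counts are read beside all genes, of which 8.45% were called higher and 14.6% lower in SalD minus SalV. In GenD minus GenV these shares were 2.49% and 2.80%. Of 14 measured lymphoid markers, mostly of T and innate lymphoid cells, 8 were lower and 1 higher in SalD minus SalV. In GenD minus GenV 1 was lower and 1 higher. Their summed level, in multiples of the 75th percentile, was 19.9 to 26.9 in GenD and 13.2 to 35.8 in GenV. It was 12.8 to 16 in SalD and 25.8 to 37.7 in SalV. The bright probe of Thy1, which stromal cells can also express, made up 84.8 to 94.4% of these sums, so they follow Thy1 and not the list as a whole. Without Thy1 the sums were 1.57 to 2.64 in GenD and 2.01 to 2.38 in GenV, and 1.38 to 1.67 in SalD and 1.76 to 2.22 in SalV. On all 16 arrays 13 of the 14 were above background. Adipocyte markers also differed, with 8 of 12 higher in SalD minus SalV and sums of 16 to 244 in SalD and 4.07 to 28.8 in SalV. None of the 12 was called in GenD minus GenV, where their median was -0.01. Their sums were 11.4 to 85.2 in GenD and 22.7 to 81.2 in GenV. In GenV minus SalV, without dexamethasone, the median of the 12 was 2.62 and none was called. Of 8 smooth muscle markers 2 were lower in SalD minus SalV, Acta2 at -0.94 and Actg2 at -1.07, with a median of -0.76 and sums of 85.1 to 172 in SalD and 189 to 308 in SalV. In GenD minus GenV none of the 8 was called and the sums overlapped, at 109 to 242 in GenD and 130 to 214 in GenV. The part of these cells in the values of Il4, Il4ra and Il2rg was not tested. Without SalD arrays 2 and 3 the SalD minus SalV differences were -1.87 for Il4ra, -1.09 for Il2rg and -1.04 for Il4, all still called.

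Among other ligands, Chil1 encodes the chitinase-like protein BRP-39, a further reported ligand of the decoy receptor. It averaged -4.22 ± 0.88 in GenD and -2.12 ± 0.89 in GenV, and -4.89 ± 0.74 in SalD and -2.06 ± 0.42 in SalV (SD, n = 4 each). It fell by 2.10 (SE 0.50, adjusted p = 0.0259) in GenD minus GenV and by 2.82 (SE 0.50, adjusted p = 0.00216) in SalD minus SalV. The GenD and SalD arrays of Chil1 had the lower means, those of Il13ra2 the higher ones.

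The lists that follow are read against all genes, of which 2.49% were called higher and 2.80% lower in GenD minus GenV, 8.45% and 14.6% in SalD minus SalV, and 16.5% and 6.39% in GenD minus SalD. Of 8 measured alarmins and alarmin receptors, 2 rose and 1 fell in GenD minus GenV, and 1 rose and 1 fell in SalD minus SalV. Il7r, a chain of the TSLP receptor, rose by 1.11 in GenD minus GenV and by 0.88 in SalD minus SalV. Il17rb, the IL-25 receptor, rose by 1.19 in GenD minus GenV. Tslp, an epithelial cytokine that starts type 2 responses, fell by 1.36 in SalD minus SalV. In GenD minus GenV it lay at -1.44 without a call (adjusted p = 0.0557). The other chain of its receptor, Crlf2, fell by 0.57 in GenD minus GenV and lay at -0.16 in SalD minus SalV without a call. The alarmin Il33 was lower by -0.91 in GenD minus SalD (adjusted p = 0.0281).

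Among other type 2 cytokines and their receptors, the called changes were lower and several genes were not called. Of 10 measured, 4 fell in GenD minus GenV and 7 in SalD minus SalV, with none called higher, and the medians of the 10 were -0.47 and -1.03. Il31ra, a chain of the IL-31 receptor, lay at 0.96 and 0.71 in these comparisons without a call. Csf2, the cytokine GM-CSF, was well above background on no GenD and no SalD array, on 3 GenV arrays and on 2 SalV arrays. Its level was about 1.44-fold lower in GenD than in GenV (adjusted p = 0.0121) and about 2.17-fold lower in SalD than in SalV (adjusted p = 0.00034). These folds set each GenD or SalD array at no less than the lowest signal well above background. The GenV and SalV means include arrays that were not well above background, so the folds are not strict bounds. Csf2rb, the beta chain shared by the receptors for IL-3, IL-5 and GM-CSF, fell by 1.12 and by 1.20 in the same comparisons. Csf2rb2, at -1.39 and -1.42, is a near-identical copy, so the pair cannot be separated with certainty. The cytokine Il10 was also well above background on no SalD array. Computed the same way, Il10 was about 1.79-fold lower in SalD than in SalV (adjusted p = 0.00773), where 2 arrays were well above background. It was about 2.14-fold higher in GenD, with 4 arrays well above background, than in SalD (adjusted p = 0.00471). Of 17 listed genes, 7 (Il5, Il5ra, Il9, Il9r, Il3, Il31 and Areg) were not among the probes kept.

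Other cytokines and receptor chains of the common gamma chain family had few called changes between dexamethasone and vehicle. Of 7 measured genes, 1 rose in GenD minus GenV and 1 fell in SalD minus SalV. In GenD minus SalD, 3 of the 7 were higher and 2 lower. Il21r, the IL-21 receptor, fell by 2.42 (SE 0.30, adjusted p = 0.000245) in SalD minus SalV and was 1.79 higher in GenD than in SalD. Il15ra, which presents IL-15, rose by 1.10 in GenD minus GenV. Il2ra, the IL-2 receptor alpha chain, was lower in GenD than in SalD at -1.24 (adjusted p = 0.0148).

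Of 11 kinases and adaptors downstream of the receptors, 1 rose and 1 fell in GenD minus GenV, and 2 rose and 5 fell in SalD minus SalV. Jak3, the kinase bound to the common gamma chain, fell by 0.70 (adjusted p = 0.0096) in GenD minus GenV and by 0.90 (adjusted p = 0.000958) in SalD minus SalV. Jak1, bound to the IL-4 receptor alpha chain, fell by 0.66 and Tyk2, bound to the IL-13 receptor alpha 1 chain, by 0.61 in SalD minus SalV. In GenD minus GenV, without a call, Jak1 lay at -0.14 and Tyk2 at -0.40 (adjusted p = 0.0555). Pik3r1, the regulatory subunit of PI3 kinase, rose by 0.80 in GenD minus GenV and by 1.23 in SalD minus SalV. Of 12 inhibitors, 1 fell in GenD minus GenV, Socs2 (adjusted p = 0.00377). In SalD minus SalV 2 fell, Socs1 at -0.57 and the phosphatase gene Ptpn6 at -0.52. In GenD minus GenV, without a call, Ptpn6 lay at -0.58 (adjusted p = 0.0535) and Socs1 at -0.01.

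Of 10 transcription factors of type 2 cells, none was called in GenD minus GenV and 3 fell in SalD minus SalV. Gata3, the master regulator of T helper 2 cells, which uterine epithelial and other cells can also express, fell by 1.16 (SE 0.24), Batf by 0.83 and Nfatc2 by 1.81. Nfatc2 was 2.01 higher in GenD than in SalD (adjusted p = 0.00599).

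Of 29 measured STAT6 target genes, 6 fell and none rose in GenD minus GenV, and 9 fell and 1 rose in SalD minus SalV. The other 23 and 19 of these genes were not called, so the genes named below are not typical of the list. Their medians were -0.65 and -0.24, against -0.01 and -0.16 over all genes. Ccl8, a chemokine for type 2 cells, fell by 1.65 and by 1.99 in these comparisons, and the macrophage lectin Mgl2 by 1.07 and by 1.41. The regulator Egr2 fell by 1.39 and by 1.00, and the low-affinity IgE receptor Fcer2a by 0.85 and by 0.82. Muc5ac, a mucin, fell by 2.19 in SalD minus SalV and was 2.13 higher in GenD than in SalD. The exception among calls was Mrc1, the macrophage mannose receptor, which rose by 0.84 in SalD minus SalV. Il4ra is itself on this list, and many of these genes have other regulators than STAT6.

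Of 13 matrix and repair genes linked to IL-13, 3 fell in GenD minus GenV, and 3 fell and 2 rose in SalD minus SalV. Timp1, an inhibitor of metalloproteinases, fell by 2.04 (SE 0.37) in GenD minus GenV and by 3.01 (SE 0.37) in SalD minus SalV. Col3a1 and Col1a2, fibrillar collagens, fell by 0.94 and 0.88 in GenD minus GenV.

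**Figure D4:**
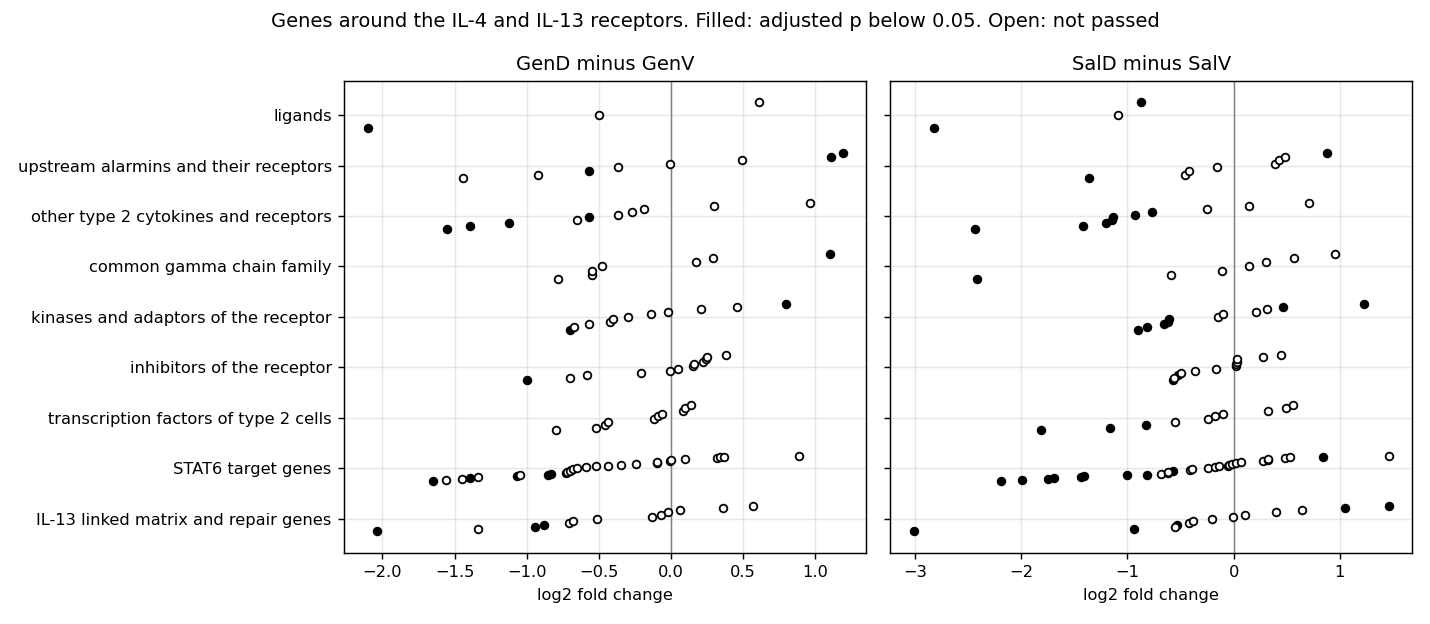
Log2 fold changes (horizontal axis) of the measured genes in 9 lists around the IL-4 and IL-13 receptors (rows), for GenD minus GenV and SalD minus SalV, 1 point for each gene. Filled points passed an adjusted p below 0.05 over all genes and open points did not. The rows of other type 2 cytokines and of STAT6 targets hold filled points almost all left of 0, while the rows of alarmins and kinases hold filled points on both sides. Csf2 and Il10 are drawn at their fitted values although some groups were below background.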

How the data were processed

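Whole uterus RNA (400 ng per sample) was labelled with Cy3 and hybridised to 16 one-colour Agilent arrays of design 014868, 4 per group. Per the file headers, Agilent Feature Extraction 12.0.0.7 produced the deposited background-subtracted intensity of each spot, which is linear and carries no scaling between arrays. Version 9.5 is named in the submitters' processing notes. The deposited value file of the series held identical intensity (largest difference 0). The log2 values were computed here from the intensity that the authors deposited.

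The log2 signal minus the array's 75th percentile was used, outlier spots were set to missing and repeated spots were averaged. Of 41174 probes, 807 with a missing value were dropped, and 32598 that were well above background on at least 4 arrays were kept. RefSeq accessions named 28223 of 29245 RefSeq probes, and the brightest probe stood for each gene. Probe coordinates are not given, because the array grid and the annotation use different builds.

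The 4 group means were estimated with limma 3.58.1 (in R 4.3.3, with the data.table package, version 1.17.8) from the 16 arrays together. Moderated tests were two-sided with Benjamini-Hochberg adjustment over 24651 genes and unnamed targets. Comparisons were GenD minus GenV, SalD minus SalV, their difference, GenD minus SalD and GenV minus SalV. The 2 dexamethasone comparisons share no array, but comparisons with a common group share its arrays. The fit was tested on simulated data. Plots used matplotlib 3.10.9 and Python 3.11.15.

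The members and gene lists were chosen with earlier results of these data known. All 7 members are named in every comparison. From each list a selection is named from up to 4 called genes with the largest change per comparison, and the 5 genes most correlated with Il13ra2 are named, with Fkbp5 and Tsc22d3. Tyk2 lies outside this rule and was named after its values were seen. Alternatives were quantile normalization, median scaling, normexp with offset 50 on median spot and background signals, no filter, a filter on all 16 arrays, averaging the probes of a gene, a fixed or random slide block, a replicate block, the compared arrays alone, array weights, and leaving out each array, SalD arrays 2 and 3, or GenV arrays 3 and 4. The arrays lay on 5 slides, with SalV array 3 alone on its slide and so in no within-slide value. The 4 arrays per group limit the precision.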

Additional observations from a re-analysis of the deposited data

Results flagged for a closer look

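In 2 of the 28 groups of 4 arrays examined, 4 for each of the 7 members, a single array lay far from the rest. Chance alone gives about 1 in 20 such groups. Il4 on SalD array 2 read -6.11, against -6.80 to -6.70 on the other SalD arrays. That array was nearest to the SalV levels, and without SalD arrays 2 and 3 the difference of Il4 in SalD minus SalV was -1.04. Il13ra1 on SalV array 2 read -0.80, against -0.39 to -0.32 on the other SalV arrays. That array was also the lowest SalV array for the second Il13ra1 probe, at -1.54.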

How the results depend on the processing

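Across 29 other settings (28 for the interaction, and 1 fewer where a filter on all 16 arrays left out Il4 and Il13), the calls of Il4ra and Il2rg in SalD minus SalV and of Il4ra in GenD minus SalD held. A fit of the compared arrays alone gives no interaction. Normexp correction moved Il13ra2 to 3.44 in SalD minus SalV and 4.55 in GenD minus GenV, and the cause was not tested. Of the 6 members tested in GenD minus GenV, 1 (Il2rg) was called by limma, but 0 with median scaling, normexp, no filter, slide as a fixed block, the replicate block, the compared arrays alone, or without SalD arrays 2 and 3 or GenV arrays 3 and 4, and 3 with array weights. Leaving out 1 array gave 0 to 1. Where the count was 0, the unadjusted p of Il2rg was below 0.05 except with normexp (0.533). In GenD minus SalD, 2 became 1 with quantile normalization, 4 with array weights and 3 in 8 other settings (normexp, either slide block, without GenV arrays 3 and 4, or without SalV 1, SalD 2, GenV 3 or GenD 4), and leaving out 1 array gave 2 to 3.

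No comparison had all 4 same-numbered pairs correlated above 0.1, so the arrays were not treated as paired, although 3 of 4 were above it in GenD minus SalD. Same-numbered deviations correlated from -0.129 to 0.248 in GenD minus GenV and from -0.109 to 0.0284 in SalD minus SalV, from 0.0655 to 0.357 in GenD minus SalD and from 0.0236 to 0.165 in GenV minus SalV. The replicate block left 0 of the 6 tested members called in GenD minus GenV, where Il2rg had an adjusted p of 0.0566. Of 8 arrays per comparison, 2, 1, 6 and 3 correlated best with their own number in these 4 comparisons.

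Only differences that were not called changed sign. In GenV minus SalV, Il4 was -0.59 with normexp, and Il13 was 1.06 with array weights, 0.55 without GenV arrays 3 and 4 and -0.63 to 0.45 leaving out 1 array. Il13ra2 was 0.05, 0.51 and -0.61 to 0.27 under the same 3 settings, and Il13ra1 was -0.29 to 0.10 leaving out 1 array. Il4ra was 0.04 with median scaling, 0.08 with normexp, 0.02 with slide as a fixed block, 0.25 with weights, 0.10 without GenV arrays 3 and 4, and -0.15 to 0.10 leaving out 1 array. Il2rg was -0.11 with normexp. Stat6 was 0.06, 0.01, 0.02, 0.07, 0.03 and -0.08 to 0.04 under the 6 settings named for Il4ra. In GenD minus GenV, Il4 was 0.70 with normexp and Il13 -0.12 without GenV arrays 3 and 4. In GenD minus SalD, Il13ra2 was -0.17 with the fixed slide block, Il13ra1 0.07 with that block and 0.06 with weights, and Stat6 -0.03 with median scaling. Stat6 was 0.07 in SalD minus SalV with median scaling. The interaction of Il4 was -0.05 with quantile normalization, that of Il13ra2 -0.13 without GenV arrays 3 and 4, and that of Stat6 -0.10 with median scaling. That of Il13ra1 was 0.10 with normexp or the fixed slide block, 0.27 with weights, 0.25 without GenV arrays 3 and 4, and -0.24 to 0.16 leaving out 1 array.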

Other observations

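Markers of the cells that make or answer IL-4 and IL-13 were read beside the members. Over all genes, 8.45% were called higher and 14.6% lower in SalD minus SalV, and 2.49% and 2.80% in GenD minus GenV. The lists are short, so the counts below are a description. Of 8 measured mast cell and basophil markers none was called in GenD minus GenV and 1 was higher in SalD minus SalV, and of 5 eosinophil markers 2 were lower in GenD minus GenV and 1 in SalD minus SalV. The summed eosinophil marker level was 0.294 to 0.623 times the array's 75th percentile in GenD and 0.311 to 0.424 in GenV, and 0.204 to 0.316 in SalD and 0.226 to 0.312 in SalV. Of 15 macrophage and dendritic cell markers, 2 were higher and 2 lower in GenD minus GenV, and 3 higher and 2 lower in SalD minus SalV. Of 11 endothelial markers, 1 was lower in GenD minus GenV and 4 in SalD minus SalV.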
